A study of Mus musculus with 8 samples.

Results

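The DNA replication genes described here are 44 genes whose products copy the genome in S phase, the part of the cell cycle in which DNA is synthesised, or supply that process. They were taken from a list of symbols, and each was represented by the probe set annotated to that symbol only that had the highest mean value over the arrays. All 44 had such a probe set, among 17097 genes represented in this way. By role, the list holds 6 subunits of the MCM2-7 helicase, 4 licensing factors, 6 factors that activate the helicase, 4 subunits of the polymerase alpha-primase complex and 4 of the polymerases delta and epsilon. It also holds 6 genes of the sliding clamp and its loader, 3 of replication protein A, 2 that mature Okazaki fragments, 5 of nucleotide supply, 3 of entry into S phase, and Uhrf1, which couples DNA methylation to replication.

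The study profiled 2 bone marrow progenitor populations of mice that carry or lack Nfil3, a transcription factor of the bZIP family on which natural killer (NK) cell development depends, and its title asks where along NK development Nfil3 is required. All-lymphoid progenitors (ALP) give rise to the lymphoid lineages, and prepro NK cells (preproNK) are a later progenitor on the NK path. The 4 groups were wild type (WT) ALP, Nfil3 knockout (KO) ALP, WT preproNK and KO preproNK, each with 2 arrays. All groups, controls included, came from ID2-GFP reporter mice, were sorted from lineage-depleted marrow and were lysed without culture. The labels give neither the ages nor the number of mice behind a sample, nor how the Nfil3 allele was made. Each group had 1 array from each of 2 months named in the sample titles, called replicate 1 and replicate 2. The titles do not say which step the month dates. Paired values are given in that order throughout. Values are log2 expression values, on which a difference of 1 is a doubling of signal. A gene was tested where its value exceeded the median of all probe sets of the array on 2 or more of 8 arrays, and called where limma's two-sided p, adjusted over all tested genes, was under 0.05. Of the 44 genes 42 were tested, and 40 of the 44 were above the median on at least 2 ALP and at least 2 preproNK arrays. Nothing in the labels says that arrays came from separate mice, so the p-values speak only to the spread among these samples, part of which may be technical.

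Replication begins at origins that ORC, CDC6 and CDT1 load with the MCM2-7 helicase during G1, a step called licensing. In S phase the helicase is activated by CDC45 and the GINS complex, polymerase alpha-primase lays down primers, and polymerases delta and epsilon extend them while held on DNA by the PCNA clamp. Most of these genes are transcribed from late G1 under E2F transcription factors, so that their RNA is high in dividing cells and low in resting cells. Lymphoid progenitors pass through stages of rapid division and stages of rest on their way to mature cells.

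Promoter sequences were available for 36 of the 44 genes in a RefSeq table of the mouse build GRCm38.p6, which gives 42 promoters of 300 bases each, 250 before and 50 after the start. An E2F site was searched as TTTCCCGC, TTTCGCGC, TTTGCCGC or TTTGGCGC on either strand. It was found in 14 of the 42 promoters (33.3%), against 2.26% of all 32851 promoters of that table. The 14 genes were Cdc6, Cdt1, Gins3, Lig1, Mcm3, Mcm5, Mcm6, Mcm7, Orc1, Pola1, Pold1, Pole2, Rfc3 and Uhrf1. A CCAAT box (CCAAT, either strand) was in 57.1% of the genes' promoters against 37.4% of all, and the cell cycle homology region (TTTGAA or TTCGAA, either strand) in 16.7% against 19.2%. These letters are a description of the windows and were not tested for binding.

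The promoters of 4 genes are shown, chosen after their values were seen: Mcm7 and Mcm6, helicase subunits with more than 1 site, Orc1, which has a site but whose level differed little between the populations, and Prim1, the primase subunit, which has none and was lower in preproNK. They lie at chr5:138171834-138172133 (minus strand), chr1:128359656-128359955 (minus strand), chr4:108579204-108579503 (plus strand) and chr10:128014965-128015264 (plus strand). Mcm7 has another promoter in the RefSeq table, at chr5:138171217-138171516, which holds 0 sites and is not shown. Capitals mark E2F sites, and of the 3 in Mcm6 the first pair, on opposite strands, overlap.
Mcm7: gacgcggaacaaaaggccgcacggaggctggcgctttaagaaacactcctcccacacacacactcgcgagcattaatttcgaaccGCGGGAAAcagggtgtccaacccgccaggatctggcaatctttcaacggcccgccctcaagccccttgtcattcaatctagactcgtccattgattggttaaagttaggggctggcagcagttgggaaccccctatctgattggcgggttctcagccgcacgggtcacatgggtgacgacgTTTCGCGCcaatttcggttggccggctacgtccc
Mcm6: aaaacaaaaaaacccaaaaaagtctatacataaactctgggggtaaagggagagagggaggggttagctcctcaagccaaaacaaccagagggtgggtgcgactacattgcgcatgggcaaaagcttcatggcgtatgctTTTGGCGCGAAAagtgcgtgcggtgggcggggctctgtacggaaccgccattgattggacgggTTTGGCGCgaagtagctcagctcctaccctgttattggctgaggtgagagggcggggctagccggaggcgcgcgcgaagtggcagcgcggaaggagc
Orc1: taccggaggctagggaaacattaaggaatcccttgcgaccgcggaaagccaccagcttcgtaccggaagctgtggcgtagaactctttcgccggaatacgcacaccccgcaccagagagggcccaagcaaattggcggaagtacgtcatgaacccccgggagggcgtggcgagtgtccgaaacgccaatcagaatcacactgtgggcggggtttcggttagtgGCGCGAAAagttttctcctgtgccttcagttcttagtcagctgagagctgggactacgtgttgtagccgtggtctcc
Prim1: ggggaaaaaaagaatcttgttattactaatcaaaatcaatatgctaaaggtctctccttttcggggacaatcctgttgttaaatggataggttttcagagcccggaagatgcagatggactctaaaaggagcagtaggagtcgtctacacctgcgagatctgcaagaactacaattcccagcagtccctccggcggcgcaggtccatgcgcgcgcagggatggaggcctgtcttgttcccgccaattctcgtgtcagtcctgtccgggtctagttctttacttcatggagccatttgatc

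Genes with and without a site overlapped in how they differed between the populations. Over the 14 genes with a site, the preproNK minus ALP difference, averaged over both genotypes, had a median of -1.39 and ran from -1.97 to 0.01. Over the 21 tested genes with a promoter but no site, the median was -1.04 and the range -2.05 to 0.06. No test was made of this.

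The arrays differed in range. The SD over all probe sets was 1.39 on WT preproNK replicate 2 and 1.55 on WT ALP replicate 2, against 1.66 to 1.88 on the other 6. WT preproNK replicate 2 correlated at 0.621 with the other array of its group, against 0.963 between the KO preproNK arrays. Nfil3 was lower on both KO arrays than on both WT arrays in ALP (6.89 and 5.50 in WT, 3.41 and 4.15 in KO) and in preproNK (4.75 and 4.74 in WT, 3.84 and 3.57 in KO). Its differences of -2.41 and -1.04 were not called by limma (adjusted p = 1 and 0.613).

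Markers of the labelled populations went with the labels. The mean log2 value of 6 all-lymphoid progenitor markers was 6.22 to 7.32 on the ALP arrays and 3.33 to 3.96 on the preproNK arrays, and that of 8 NK precursor markers was 4.12 to 4.48 and 5.60 to 7.29. T lineage markers, of which 7 of 8 had a probe set, were at 4.27 to 4.56 in ALP, 7.26 and 5.97 in WT preproNK and 9.02 and 8.64 in KO preproNK. The preproNK arrays therefore carried RNA of T lineage genes as well.

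**Figure D1:**
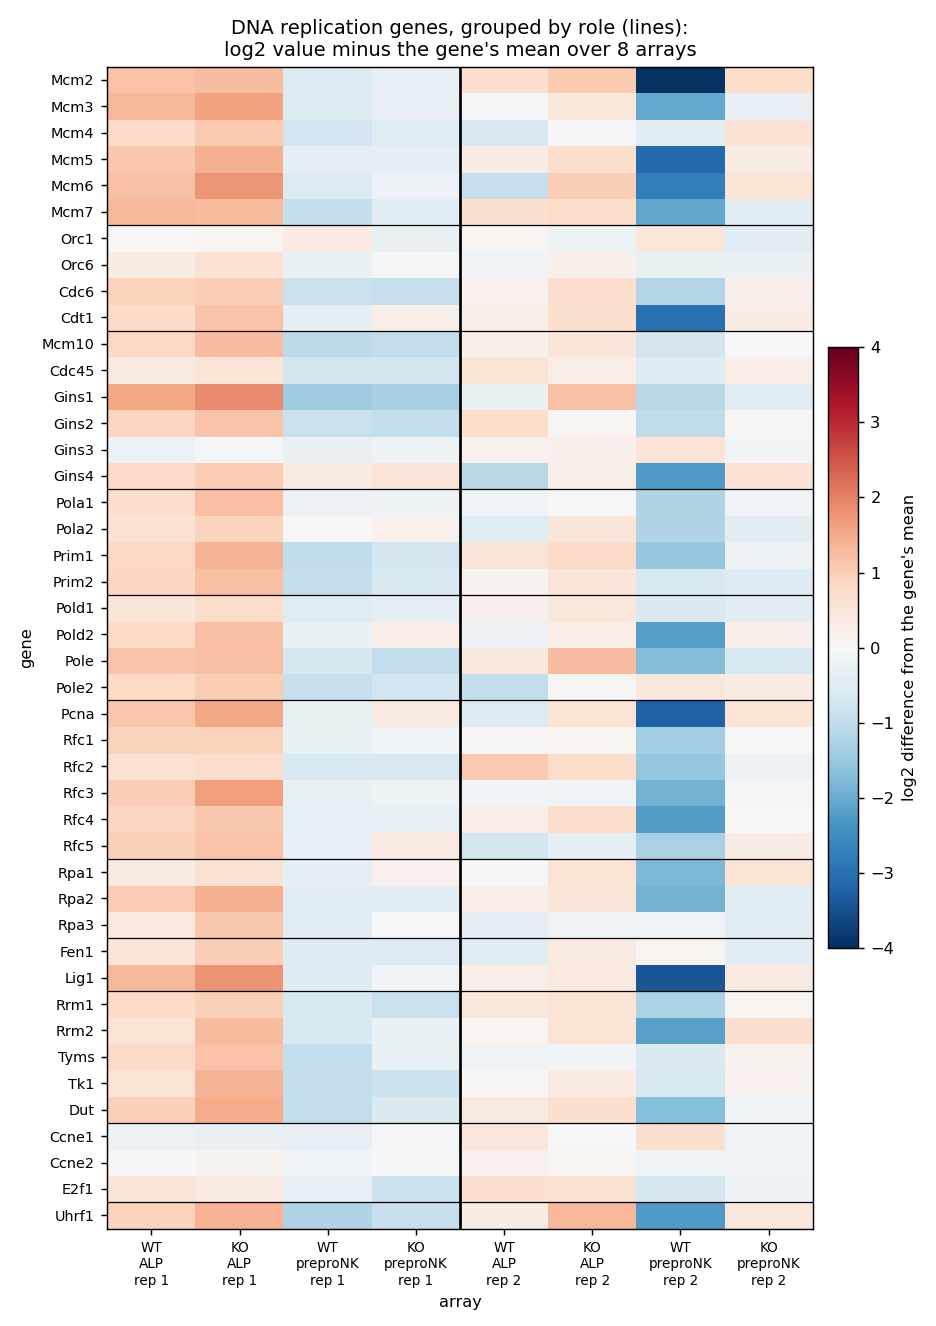
Each of the 44 genes (rows, grouped by role) on the 8 arrays (columns, replicate 1 left of the thick line), coloured by the log2 value minus the gene's own mean over the arrays. The ALP columns are mostly above the mean. Both WT preproNK columns and KO preproNK replicate 1 are mostly below it, while KO preproNK replicate 2 holds many values on either side. WT preproNK replicate 2 holds the deepest values, down to Mcm2 at a log2 value of 2.83.

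DNA replication genes were lower in preproNK than in ALP. Averaged over both genotypes (4 preproNK against 4 ALP arrays), 40 of the 42 had a negative difference, while 49.1% of all tested genes had a positive one. The replication genes had a median of -1.27 and a range from -2.17 to 0.06. The median was -1.54 within replicate 1 and -0.90 within replicate 2. Tested genes of like mean level had a median difference of -0.09, and 37 of the 42 lay below their like-level median within both replicates. Over all 44 genes, with no filter, the median was -1.21 and 42 were negative. In these bulk samples, fewer cells in S phase and less RNA per cell cannot be told apart.

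Limma called 7 of the 42 lower and 0 higher, against 1.61% of all 11583 tested genes called lower and 1.77% called higher. With the replicate number as a block it called 16 lower, the 7 among them, against 3.58% of all genes. By an unadjusted p under 0.05, 26 were lower and 0 higher, against 7.83% and 6.57% of all genes. The number of calls moved with the arrays that entered the fit. Limma called 0 without WT ALP replicate 1 (0.363% of all genes lower), and 0 without each of the 4 KO arrays in turn (0.121% to 0.458%). It called 3 without WT ALP replicate 2 (0.907%), 23 without WT preproNK replicate 1 (5.85%) and 8 without WT preproNK replicate 2 (2.69%), so the share of all genes moved in the same direction.

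The scale of the arrays was set aside by ranking each gene among the tested genes of its own array. The median percentile of the replication genes was 81.9 and 74.4 in WT ALP and 84.3 and 82.1 in KO ALP. It was 57.2 and 39.4 in WT preproNK and 60.9 and 64.5 in KO preproNK, so no preproNK array reached the lowest ALP array. For 27 of the 42 genes every preproNK percentile lay below every ALP percentile, and for 0 every one lay above, against 8.76% and 6.39% of all tested genes. On the log2 values, 17 of the 42 did not overlap and were lower and 0 were higher, against 6.97% and 4.52%. This ranking was chosen after the data were seen.

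**Figure D2:**
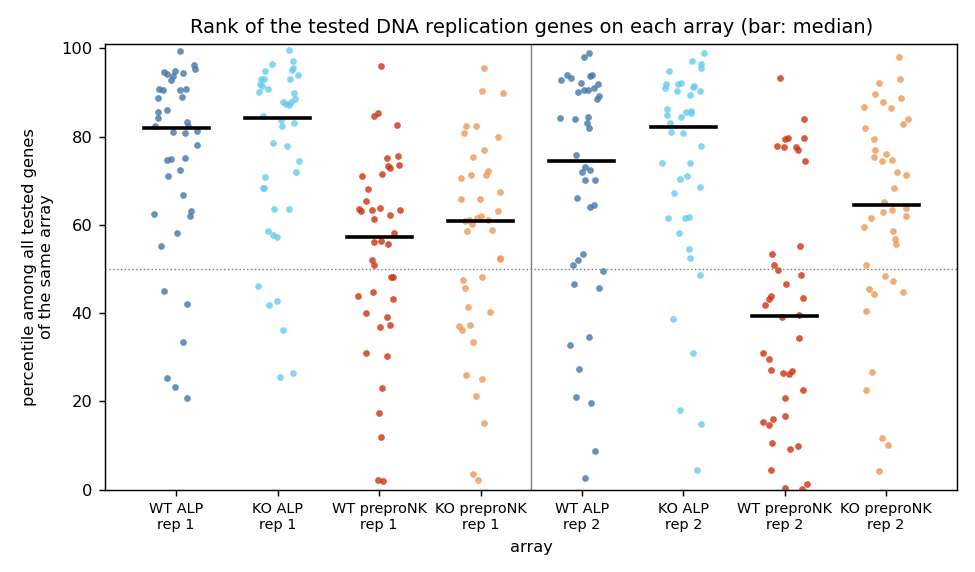
Percentile of each tested DNA replication gene (point) among all tested genes of the same array, with the median as a bar, for the 8 arrays with replicate 1 on the left of the vertical line. The ALP medians lie between 74.4 and 84.3 and the preproNK medians between 39.4 and 64.5, with WT preproNK replicate 2 the lowest.

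Among the MCM2-7 subunits, which form the ring that unwinds the DNA, the median difference was -1.68 and 1 of 6 was called. Mcm7 was at 8.51 and 7.86 on the WT ALP arrays, 8.48 and 7.94 on KO ALP, 6.25 and 5.12 on WT preproNK and 6.79 and 6.76 on KO preproNK. Every preproNK array was below every ALP array, and the difference was -1.97 (SE 0.34, adjusted p = 0.0246), but -1.13 by its second probe set. Mcm2 was at 7.91 and 7.45 on the WT ALP arrays, 8.03 and 7.83 on KO ALP, 6.24 and 2.83 on WT preproNK and 6.46 and 7.503 on KO preproNK. Its WT preproNK replicate 2 value stands far below the rest, its KO preproNK replicate 2 value lies above WT ALP replicate 2, and the difference of -2.05 (SE 0.68, adjusted p = 0.195) was not called. Its second probe set gave -1.54, with 4.73 on WT preproNK replicate 2. Mcm6 was at 7.55 and 5.46 on the WT ALP arrays, 8.14 and 7.35 on KO ALP, 5.82 and 3.62 on WT preproNK and 6.16 and 6.94 on KO preproNK. The groups overlap through the low WT ALP replicate 2 value, and the difference was -1.49 (SE 0.62, adjusted p = 0.323). Mcm5, whose mean value was 9.40, differed by -1.75, Mcm3 by -1.62 and Mcm4 by -0.55, none of them called.

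Licensing factors were mixed, with a median of -0.92 and 0 of 4 called. Cdc6, which loads the helicase with ORC, was at 5.20 and 4.47 on the WT ALP arrays, 5.29 and 4.98 on KO ALP, 3.42 and 3.14 on WT preproNK and 3.36 and 4.51 on KO preproNK. Its KO preproNK replicate 2 value exceeds WT ALP replicate 2, and the difference was -1.38 (SE 0.34, adjusted p = 0.0841). Cdt1, the partner of Cdc6, differed by -1.41 (SE 0.54, adjusted p = 0.263). Orc1, the largest ORC subunit, was at 4.35 and 4.43 on the WT ALP arrays, 4.43 and 4.16 on KO ALP, 4.66 and 4.79 on WT preproNK and 4.06 and 3.90 on KO preproNK and differed by 0.01 (SE 0.24, adjusted p = 0.995). Its values run from 3.90 to 4.79, below the array median on 1 array, and the populations overlap. Its second probe set, below the median on all 8 arrays, gave -0.20. Orc6 differed by -0.47 and was lower on 4 of 4 preproNK arrays by percentile. Its log2 values overlapped, at 5.47 on KO preproNK replicate 1 and 5.42 on WT ALP replicate 2.

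Of the factors that activate the helicase, 1 of 6 was called and the median was -1.12. Gins1, a GINS subunit, was at 7.31 and 5.50 on the WT ALP arrays, 7.67 and 6.96 on KO ALP, 4.37 and 4.65 on WT preproNK and 4.45 and 5.29 on KO preproNK. No preproNK array reached the lowest ALP array, and the difference was -2.17 (SE 0.45, adjusted p = 0.044), the most negative of the 42. Cdc45, which joins GINS and MCM2-7 in the active helicase, was at 5.9995 and 6.19 on the WT ALP arrays, 6.19 and 5.93 on KO ALP, 4.93 and 5.14 on WT preproNK and 4.90 and 5.91 on KO preproNK. The populations do not overlap here either, but the difference of -0.86 (SE 0.30, adjusted p = 0.219) was not called. Gins2 (-1.41) and Mcm10 (-1.38), which joins the helicase as it starts, were lower without overlap and not called. Gins4 (-0.43) and Gins3 (-0.04) overlapped.

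Polymerase alpha-primase makes the RNA-DNA primers, and 1 of its 4 genes was called (median -1.11). Prim1, the catalytic primase subunit, was at 7.28 and 6.97 on the WT ALP arrays, 7.80 and 7.22 on KO ALP, 5.45 and 4.89 on WT preproNK and 5.72 and 6.26 on KO preproNK. All preproNK values are below all ALP values, and the difference was -1.74 (SE 0.29, adjusted p = 0.022), but -0.91 by its second probe set. Prim2, its partner, differed by -1.35 (SE 0.30, adjusted p = 0.0572). Pola1, the polymerase subunit, was at 4.43 and 3.54 on the WT ALP arrays, 4.93 and 3.71 on KO ALP, 3.46 and 2.52 on WT preproNK and 3.498 and 3.61 on KO preproNK. It was above the array median on 2 arrays only, both replicate 1 ALP arrays, so it passed the filter through ALP alone, and its difference was -0.88 (SE 0.39, adjusted p = 0.372). Pola2 differed by -0.72.

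Among the subunits of polymerases delta and epsilon the median was -0.97, with 1 of 4 called. Pole, the catalytic subunit of the leading strand polymerase, was at 6.89 and 6.19 on the WT ALP arrays, 6.96 and 6.98 on KO ALP, 5.07 and 4.004 on WT preproNK and 4.77 and 5.12 on KO preproNK. No preproNK value reaches an ALP value, and the difference was -2.01 (SE 0.33, adjusted p = 0.0199). Pole2, its second subunit, was at 6.69 and 4.88 on the WT ALP arrays, 6.90 and 5.93 on KO ALP, 4.96 and 6.31 on WT preproNK and 5.15 and 6.20 on KO preproNK. Here WT preproNK replicate 2 lies above both KO and WT ALP replicate 2, and the difference was -0.45 (SE 0.53, adjusted p = 0.868), while another Pole2 probe set gave -1.54. Pold1 (-0.94) and Pold2 (-1.001) of the lagging strand polymerase were not called.

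The clamp and its loader had a median of -1.26 and 1 of 6 genes called. Rfc2, a subunit of the loader RFC, was at 8.69 and 9.13 on the WT ALP arrays, 8.76 and 8.79 on KO ALP, 7.45 and 6.51 on WT preproNK and 7.42 and 7.82 on KO preproNK. The preproNK arrays are all below the ALP arrays, and the difference was -1.55 (SE 0.30, adjusted p = 0.0392), with -1.69 and -1.26 from its other probe sets. Pcna, the clamp itself, was at 8.999 and 7.36 on the WT ALP arrays, 9.44 and 8.43 on KO ALP, 7.60 and 4.68 on WT preproNK and 8.25 and 8.43 on KO preproNK. All but WT preproNK replicate 2 lie in the range of the ALP arrays, and the difference of -1.32 (SE 0.67, adjusted p = 0.455) was not called. Rfc3 was at 7.41 and 6.32 on the WT ALP arrays, 8.08 and 6.26 on KO ALP, 6.13 and 4.54 on WT preproNK and 6.23 and 6.37 on KO preproNK. Its difference was -1.20 (SE 0.53, adjusted p = 0.356), and Rfc4 (-1.45), Rfc1 (-0.94) and Rfc5 (-0.49) were not called.

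Replication protein A coats single-stranded DNA, and 0 of its 3 genes were called (median -0.71). Rpa2 was at 7.64 and 6.89 on the WT ALP arrays, 8.06 and 7.12 on KO ALP, 6.22 and 4.75 on WT preproNK and 6.19 and 6.18 on KO preproNK. It was lower on every preproNK array, with a difference of -1.60 (SE 0.41, adjusted p = 0.0922), whereas Rpa1 (-0.71) and Rpa3 (-0.48) overlapped. Lig1, the ligase that seals Okazaki fragments, was at 8.77 and 7.67 on the WT ALP arrays, 9.26 and 7.86 on KO ALP, 6.95 and 4.04 on WT preproNK and 7.35 and 7.81 on KO preproNK. The groups overlap by KO preproNK replicate 2 against WT ALP replicate 2, and the difference was -1.85 (SE 0.66, adjusted p = 0.225). Fen1, the flap nuclease of the same step, was at 3.74 and 2.77 on the WT ALP arrays, 4.24 and 3.61 on KO ALP, 2.75 and 3.38 on WT preproNK and 2.76 and 2.84 on KO preproNK. It was below the array median on 7 of 8 arrays and was not tested.

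Of the nucleotide supply genes 1 of 5 was called, with a median of -1.22. Dut, which removes dUTP before it can be built into DNA, was at 8.11 and 7.496 on the WT ALP arrays, 8.65 and 7.78 on KO ALP, 6.16 and 5.46 on WT preproNK and 6.56 and 6.98 on KO preproNK. The populations do not overlap, and the difference was -1.72 (SE 0.33, adjusted p = 0.0376), but -0.86 by its second probe set. Rrm1, the large subunit of ribonucleotide reductase, was at 8.10 and 7.78 on the WT ALP arrays, 8.29 and 7.89 on KO ALP, 6.69 and 6.09 on WT preproNK and 6.45 and 7.45 on KO preproNK. It too was lower on every preproNK array, with a difference of -1.34 (SE 0.32, adjusted p = 0.075). Rrm2, the small subunit, was at 7.95 and 7.496 on the WT ALP arrays, 8.67 and 7.97 on KO ALP, 6.77 and 5.22 on WT preproNK and 7.15 and 8.05 on KO preproNK. KO preproNK replicate 2 reaches the ALP range for Rrm2, and the difference was -1.22 (SE 0.42, adjusted p = 0.211). By its second probe set it was -0.39, and 0.006 within KO.

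Tyms, thymidylate synthase, was at 8.56 and 7.66 on the WT ALP arrays, 8.92 and 7.67 on KO ALP, 6.82 and 7.22 on WT preproNK and 7.54 and 7.94 on KO preproNK and differed by -0.82 (SE 0.37, adjusted p = 0.379). Its other probe sets, all dimmer, ran from -0.62 to 0.51. Tk1, the thymidine kinase of S phase, was at 7.47 and 6.97 on the WT ALP arrays, 8.27 and 7.28 on KO ALP, 5.96 and 6.30 on WT preproNK and 6.06 and 7.10 on KO preproNK and differed by -1.15 (SE 0.36, adjusted p = 0.165). For both genes KO preproNK replicate 2 lies above the lowest ALP array.

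The regulators of S phase entry had a median of -0.49 and 0 of 2 called. Ccne1, cyclin E1, was at 5.33 and 6.001 on the WT ALP arrays, 5.25 and 5.53 on KO ALP, 5.22 and 6.21 on WT preproNK and 5.50 and 5.41 on KO preproNK. WT preproNK replicate 2 is the highest of the 8 and the difference was 0.06 (SE 0.32, adjusted p = 0.985). E2f1, an E2F activator, was at 6.26 and 6.47 on the WT ALP arrays, 6.12 and 6.39 on KO ALP, 5.45 and 5.09 on WT preproNK and 4.95 and 5.60 on KO preproNK. It was lower on every preproNK array, with a difference of -1.04 (SE 0.27, adjusted p = 0.0988). Ccne2, cyclin E2, whose mean value was 2.42, was at 2.47 and 2.60 on the WT ALP arrays, 2.57 and 2.49 on KO ALP, 2.32 and 2.25 on WT preproNK and 2.37 and 2.30 on KO preproNK and below the median of all 8 arrays. It was not tested. Uhrf1, which brings the maintenance DNA methyltransferase to new DNA, was at 8.605 and 7.99 on the WT ALP arrays, 9.08 and 8.996 on KO ALP, 6.49 and 5.41 on WT preproNK and 6.75 and 8.14 on KO preproNK. KO preproNK replicate 2 overlaps WT ALP replicate 2, and the difference was -1.97 (SE 0.41, adjusted p = 0.044), with -1.48 by its second probe set.

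**Figure D3:**
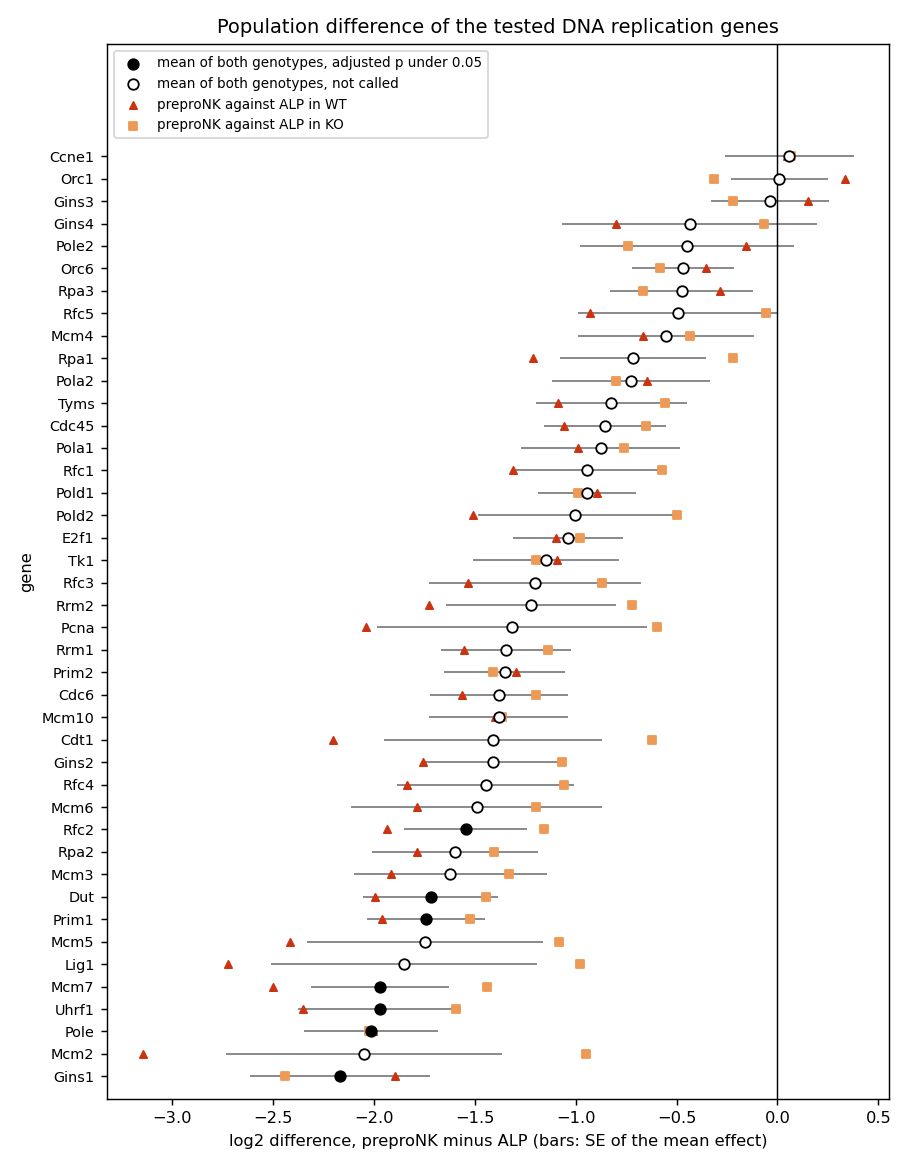
PreproNK minus ALP difference in log2 for each tested DNA replication gene, as the mean of both genotypes (circles with SE bars, filled where called) and within WT (triangles) and KO (squares). The 7 filled circles lie between -1.55 and -2.17, and Ccne1, Orc1 and Gins3 lie near 0 (0.06, 0.01 and -0.04).

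Within WT alone (2 against 2 arrays), the median difference was -1.52 (-1.40 and -1.56 within the replicates), against -0.22 for genes of like level. While 46.3% of all tested genes were positive, 39 of the 42 replication genes were negative. Limma called 0 lower and 0 higher, against 0.0604% and 0.0345% of all genes. By an unadjusted p under 0.05, 25 were lower and 0 higher, against 4.64% and 2.72%. With the replicate block it called Mcm7 alone (0.311% of all genes lower), and without WT preproNK replicate 1 it called 16 (5.65%). The groups did not overlap for 31 genes that were lower and 1 that was higher, against 14.9% and 9.73%. Mcm7 had the smallest p, at -2.50 (SE 0.48, adjusted p = 0.149), followed by Prim1 (-1.96), Rfc2 (-1.93), Pole (-2.00) and Dut (-1.99), at adjusted p from 0.201 to 0.251. The 1 gene that was higher without overlap was Orc1, at 0.34, but 0.005 by its second probe set, which was below the median on all 8 arrays.

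Within KO alone the median was -0.96, against 0.04 for genes of like level. While 49.7% of all tested genes were positive, 41 of the 42 replication genes were negative. The replicates differed: the median was -1.52 in replicate 1 and -0.34 in replicate 2. Limma called 0 lower and 0 higher, against 0.535% and 1.22% of all genes. By an unadjusted p under 0.05, 15 were lower and 0 higher, against 4.51% and 5.68%. With the replicate block it called Pole (1.29% of all genes lower), and Pole again without each WT preproNK array in turn (1.39% in both fits). The groups did not overlap for 31 lower and 0 higher, against 20.6% and 22.2%. Pole had the smallest p, at -2.02 (SE 0.47, adjusted p = 0.0954). Gins1 was -2.44, with -3.22 and -1.67 in the replicates, Prim1 -1.52, Prim2 -1.41 and Dut -1.44, at adjusted p from 0.137 to 0.27.

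T lineage and NK precursor markers rose with the population difference, and markers of early progenitors fell. Limma called 7 of 7 tested T lineage markers and 5 of 7 NK precursor markers higher, and 4 of 6 all-lymphoid progenitor markers lower, among them Dntt (-6.005, adjusted p = 0.000286). Of all tested genes 1.77% were called higher and 1.61% lower. As mean log2 values, erythroid markers ran from 4.53 to 4.88 in ALP and 4.35 to 5.10 in preproNK, and myeloid markers from 6.18 to 7.07 and 5.32 to 6.83, so both overlapped. Mast cell and megakaryocyte markers ran from 3.24 to 3.85 and 3.51 to 4.15, which overlapped too. B lineage markers ran from 4.65 to 4.87 and 3.80 to 4.79, and overlapped only through WT preproNK replicate 2. Of 5 tested B lineage markers 1 was called lower, Blnk (-3.26), at 5.95 to 6.89 on the ALP arrays and 3.10 to 3.52 on the preproNK arrays. Dendritic markers, of which 4 of 6 had a probe set, ran from 7.16 to 7.83 in ALP and 4.79 to 6.05 in preproNK without overlap, and 2 of the 4 were called lower, Irf8 and Flt3, the latter also an all-lymphoid progenitor marker. The part of these cell types in the replication gene values was not tested.

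Loss of Nfil3 gave no called replication gene in either population. In ALP, KO minus WT had a median of 0.34 (0.30 and 0.33 within the replicates), against 0.19 for genes of like level, and ran from -0.28 to 1.24. Limma called 0 of 42 in either direction, against 0% of all tested genes each way, and 0 had an unadjusted p under 0.05 (0.0345% of all higher and 0.00863% lower). The KO value was the higher within both replicates for 33 genes and the lower for 2, against 41.8% and 25.3% of all genes. With both narrow-range arrays left out the median was -0.001238.

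The groups did not overlap for 4 genes, Pole, Rpa1, Rrm2 and Uhrf1, which were higher in KO ALP, and 0 were lower, against 8.68% and 7.4% of all genes. The smallest p belonged to Gins1 (0.91, SE 0.63), with 0.36 and 1.46 within the replicates. Mcm6 followed at 1.24 (SE 0.88), then Uhrf1 at 0.74, Pola2 at 0.64 and Tk1 at 0.55, all at adjusted p = 1. For Gins1 and Mcm6 the replicate 2 difference is the larger, and WT ALP replicate 2 is their lowest ALP array.

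In preproNK, KO minus WT had a median of 0.68, against 0.50 for genes of like level. Of the 42 genes 39 were positive, against 57.1% of all tested genes. The replicates differed in size: the median was 0.19 within replicate 1 and 1.36 within replicate 2, the pair that holds WT preproNK replicate 2. Limma called 0 of 42, against 0% of all genes each way, and 6 genes had an unadjusted p under 0.05 and were higher, namely Mcm2, Cdt1, Pcna, Rpa1, Rrm2 and Uhrf1, with 0 lower, against 4.51% and 0.889% of all genes. The KO value was the higher within both replicates for 28 genes and the lower for 1, against 35% and 26.1% of all. With the replicate block limma called 0 of 42, against 0.0863% of all genes higher and 0% lower. Without WT preproNK replicate 1, the WT group is WT preproNK replicate 2 alone, the array of narrowest range. With each array left out in turn, the median of the replication genes ran from 0.45 to 1.10. The mean T lineage marker value was 7.26 and 5.97 in WT preproNK and 9.02 and 8.64 in KO preproNK. That of NK precursor markers was 6.33 and 5.60 in WT preproNK and 7.29 and 7.26 in KO preproNK. All-lymphoid progenitor, erythroid, and mast cell and megakaryocyte markers had lower means on both KO preproNK arrays than on both WT ones. The part of these cell types in the knockout difference was not tested.

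The groups did not overlap for 22 genes that were higher in KO preproNK and for 1 that was lower, against 22.7% and 16.5% of all genes. Mcm2 differed by 2.45 (SE 0.97, adjusted p = 0.613), with 0.22 within replicate 1 and 4.67 within replicate 2. Its second probe set gave 0.55. Cdt1 differed by 1.95 (0.61 and 3.28), Pcna by 2.20 (0.64 and 3.76) and Lig1 by 2.08 (0.40 and 3.77). The same imbalance held for Rrm2 at 1.61 (0.39 and 2.82), Uhrf1 at 1.49 (0.26 and 2.73) and Rpa1 at 1.44 (0.52 and 2.35), all at adjusted p = 0.613. Orc1 was the 1 gene that was lower without overlap, at -0.75 (-0.60 and -0.89), with -0.22 by its second, dim probe set.

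**Figure D4:**
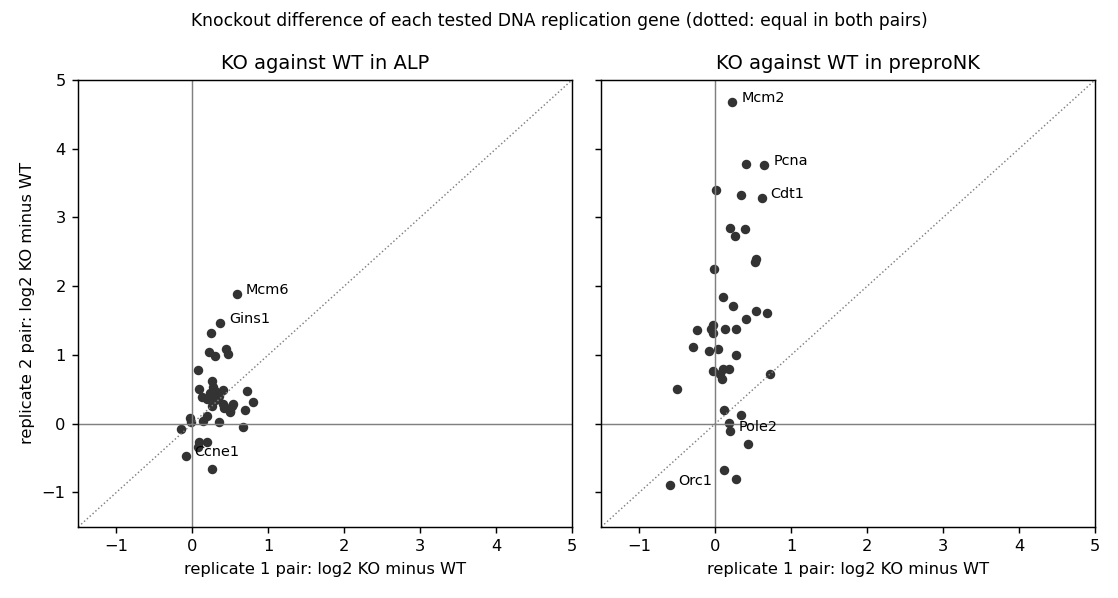
KO minus WT difference in log2 of each tested DNA replication gene within replicate 1 (horizontal) and replicate 2 (vertical), in ALP (left) and preproNK (right), with equal values on the dotted line. In preproNK the points rise steeply along replicate 2, up to Mcm2 at 4.67 against 0.22 in replicate 1, and in ALP the points lie closer to the origin, with Mcm6 at 0.59 and 1.89.

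The knockout effect itself was compared between the populations. The interaction (KO minus WT in preproNK less that in ALP) had a median of 0.48, with -0.13 within replicate 1 and 1.23 within replicate 2, against 0.33 for genes of like level. Limma called 0 of 42, against 0% of all genes each way, and 0 had an unadjusted p under 0.05, against 1.45% of all genes higher and 0.13% lower. Among the genes with the same sign in both replicates, Mcm2 (2.19, SE 1.37), Mcm7 (1.06, SE 0.68), Cdt1 (1.58), Rpa1 (0.99) and Orc1 (-0.65) had the smallest p, all at adjusted p = 1.

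Other genes of the same process and of the rest of the cycle were read from lists. Of 38 other replication factors 31 were tested, and their population difference had a median of -0.69. Limma called 1 lower and 0 higher, against 1.61% and 1.77% of all tested genes. At an unadjusted p under 0.05, 12 were lower and 1 higher, against 7.83% and 6.57%. The called gene was Timeless, which protects forks and steadies their pace, at -2.12 (SE 0.27, adjusted p = 0.0084). Its partner Tipin differed by -1.44 (SE 0.34, adjusted p = 0.0678). Of 17 tested regulators of G1 and S phase (median -1.07), 1 was called lower, Cdk6, a cyclin D kinase of G1, at -2.29 (SE 0.32, adjusted p = 0.011). Of the 17, 10 were lower and 0 higher by an unadjusted p under 0.05, against the same 7.83% and 6.57% of all genes. Cdk6 was also called within KO, at -2.55 (SE 0.45, adjusted p = 0.0386), where 0.535% of all genes were called lower.

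Of 12 brakes of the cycle, whose median was 0.36, 1 was called lower: Cdkn1a, the p21 inhibitor of cyclin-dependent kinases, at -2.60 (SE 0.36, adjusted p = 0.011). The brakes Cdkn2d (0.84) and Btg1 (2.79) were higher by an unadjusted p under 0.05 and not called. Of all genes 1.61% were called lower, and 6.57% were higher by that p. Of 14 tested genes of G2 and mitosis 0 were called, and 8 were lower by an unadjusted p under 0.05, against 7.83% of all genes. They were led by Aurkb, a kinase of chromosome segregation, at -2.06 (SE 0.54, adjusted p = 0.099) and Ttk, a spindle checkpoint kinase, at -1.43 (SE 0.39, adjusted p = 0.112). The median of the 14 was -0.94, with -1.73 within replicate 1 and -0.13 within replicate 2.

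Under the knockout no gene of these lists was called in ALP, in preproNK or for the interaction, against 0% of all genes each way. In ALP the smallest p belonged to Top1 (0.63) and Rnaseh2b (0.77), Ccnd1 (0.75) and E2f7 (0.81), Cdkn2a (-0.56) and Ccng2 (0.36), and Nusap1 (0.82) and Top2a (0.69), in the order of the lists. In preproNK they were Timeless (1.25) and Dtymk (1.39), E2f2 (1.52) and Ccnd3 (1.84), Cdkn1a (1.03) and Cdkn1b (1.74), and Aurkb (2.76) and Birc5 (1.64). E2f2, an E2F activator, differed by 1.22 and 1.83 within the replicates, so its difference was present in both.

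**Figure D5:**
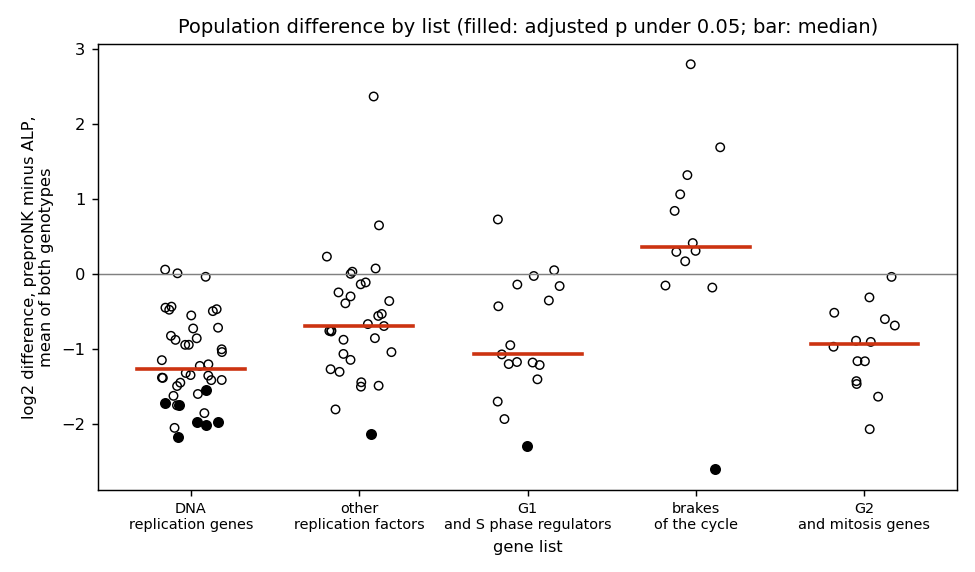
PreproNK minus ALP difference in log2, mean of both genotypes, of each tested gene (circle, filled where called) in 5 lists, with the median as a bar. The medians of the lists of replication, G1 and S phase, and mitosis lie between -0.69 and -1.27, and that of the brakes at 0.36.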

How the data were processed

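RNA of sorted marrow progenitors was amplified for 23 cycles and hybridised to 8 one-colour Affymetrix arrays, per the labels' protocols. Values deposited by the authors are log2 signals of each probe set, and the submitters' processing notes name RMA and Partek as tools. Their versions and settings were not given in the sources used here. The log2 scale was inferred from the size of the values. Precision is limited by the number of arrays.

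Of 45141 probe sets, 28898 carried 1 gene symbol in the platform annotation, 551 several and 15692 none, and those with several or none were not used. The probe set of highest mean stood for each gene. The filter left 11583 tested genes. Limma 3.58.1 in R 4.3.3 fitted a mean per group to all 8 arrays (4 residual degrees of freedom). There were 6 comparisons, each with two-sided p-values adjusted by Benjamini and Hochberg over all tested genes. A member's like-level median is that of the tested non-member genes nearest to it in mean level. The script was tested on simulated data. The members and lists were chosen with earlier results of these data known.

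The sample titles tie each replicate number to a month, without saying which step it dates, and the samples were paired by it. Deviations of same-numbered arrays from their group means correlated at 0.608 to 0.807 between the ALP groups and WT preproNK, and at 0.149 to 0.205 with KO preproNK. Alternatives were the replicate as a block, array weights, other scalings, the mean of probe sets, no filter, a floor at the array median and leaving out arrays. With 2 arrays per group, both arrays of a group got the same weight (0.314 in WT preproNK, 2.73 in KO preproNK). The weights therefore could not set WT preproNK replicate 2 apart from its partner. Values on every array are given for a set list of members, for called members or, where fewer than 5 were called, the 5 of smallest p whose replicate differences shared a sign, and for Nfil3. Other genes named were chosen after their values were seen. Some list genes, such as Orc3 and Ccnb1, had no probe set with 1 symbol and were not analysed here.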

Additional observations from a re-analysis of the deposited data

Results flagged for a closer look

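Orc1, a subunit of the origin recognition complex, had population differences of opposite sign in the WT and KO genotypes. PreproNK minus ALP was 0.34 in WT (0.31 and 0.36 within the replicates) and -0.32 in KO. The interaction was -0.65 (SE 0.48), and limma did not call it (adjusted p = 1). The second Orc1 probe set, below the median on all 8 arrays, gave 0.005 in WT and -0.41 in KO. The positive WT difference thus rests on 1 probe set whose values are near background.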

How the results depend on the processing

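No called result changed sign under the alternatives run, but the median of KO against WT in ALP, which was small, did. For the mean population effect, the 7 calls (1.61% of all genes called lower) became 16 (3.58%) with the replicate block, which pairs the arrays by date, 11 (2.16%) after repeated quantile normalization, 11 (2.15%) with the arrays scaled to a common SD, 4 (0.772%) with no filter on dim genes (more genes tested), 22 (6.15%) with the replicate block and WT preproNK replicate 2 left out, and 23 (5.93%) with both narrow-range arrays left out. The share of all genes thus moved with the count. Leaving out both narrow-range arrays was chosen after seeing the data. Gins1 and Uhrf1 were not called with array weights or with a floor at the array median, Mcm7, Prim1 and Uhrf1 not with the mean of probe sets, and Dut, Gins1 and Uhrf1 not without the filter. For preproNK against ALP in WT, the calls became 1 (0.311% of all genes) with the replicate block, 1 (0.25%) after quantile normalization, 1 (1.22%) with the block and WT preproNK replicate 2 left out, and 5 (1.75%) with both narrow-range arrays left out. Its median became -1.65 with a common SD, -1.25 with the mean of probe sets, -1.09 with the block and WT preproNK replicate 2 left out, -1.40 with both narrow-range arrays left out and -1.22 less genes of like level. For preproNK against ALP in KO, the calls became 1 (1.29%) with the replicate block, 8 (3.13%) with array weights, 10 (4.06%) with the block and WT preproNK replicate 2 left out and 12 (4.21%) with both narrow-range arrays left out. The median of KO against WT in ALP became 0.14 after quantile normalization, 0.22 with a common SD, 0.17 less genes of like level and -0.001238 with both narrow-range arrays left out. The cause of these shifts was not tested. The replicate block changed no other count of calls.

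With each array left out in turn, calls ran from 0 to 0 for KO against WT in ALP and for the interaction, 0 to 13 for KO against WT in preproNK, 0 to 16 for preproNK against ALP in WT, 0 to 1 in KO and 0 to 23 for the mean population effect. The upper counts for KO against WT in preproNK, preproNK against ALP in WT and the mean population effect shared a source. They came from the fit without WT preproNK replicate 1, which leaves WT preproNK replicate 2 alone in its group. The share of all genes called in the same direction was also largest in that fit. The rise in calls was therefore not confined to the replication genes. Across the fits that left out each array in turn, the medians ran from -0.0035 to 0.73 for KO against WT in ALP, 0.45 to 1.10 in preproNK, -1.86 to -0.93 for preproNK against ALP in WT, -1.24 to -0.57 in KO, 0.08 to 0.82 for the interaction and -1.45 to -0.93 for the mean population effect. Under each rescaling 41 of the 42 genes were negative in the mean population effect, against 40 as deposited. For KO against WT in ALP, 31 or 32 were positive, against 36 as deposited, where 57% of all tested genes were positive. With 2 arrays per group and no detection calls, differences of genes near an array's median, such as Pola1, Cdc6, Rpa3 and Orc1, are limited by background.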

Other observations

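Some genes tied to DNA replication and proliferation had positive differences between preproNK and ALP. Samhd1, which hydrolyses the deoxynucleotides that ribonucleotide reductase helps to make, had a mean log2 value of 8.69 over the 4 preproNK arrays and 6.32 over the 4 ALP arrays, a difference of 2.36 (SE 0.53, adjusted p = 0.0598) that limma did not call. Rrm1 and Rrm2, the reductase subunits, differed by -1.34 and -1.22, though the second Rrm2 probe set gave -0.39. Btg1, an inhibitor of proliferation, differed by 2.79 (SE 0.95, adjusted p = 0.207), with 3.14 and 2.44 within the replicates. The populations overlapped for Btg1. Its WT preproNK replicate 2 value of 4.96 lay below WT ALP replicate 1 (6.29) and both KO ALP arrays (6.63 and 5.29). These genes were singled out after their values were seen.

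Mycn, a MYC family factor, differed by a similar amount within both replicates of preproNK under the knockout, at -1.13 (-1.23 and -1.02). Limma did not call it (adjusted p = 0.613).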
